A study of Mus musculus with 2 samples.

Results

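Mast cells of E15.5 mouse trunk skin were selected on the raw counts of 3 granule protease genes in sorted tdTomato+ cells. Among cell barcodes with at least 100 genes and at most 10% mitochondrial unique molecular identifiers (UMIs), a cell was taken as a mast cell when *Cma1*, *Cpa3* and *Tpsb2* together had at least 10 UMIs and the melanoblast genes *Dct*, *Pmel* and *Mlana* at most 4. This rule chose 92 of 1540 HIRA WT cells, a share of 5.97% (4.84% to 7.28%), and 3 of 828 HIRA KO cells, a share of 0.362% (0.0748% to 1.06%). The WT embryo was *TyrCre::Hira* wt/wt and the KO embryo *TyrCre::Hira* fl/fl. Both carried a tdTomato reporter that is switched on by Cre recombinase, Cre was under the *Tyr* promoter, and the strain background was mixed and close to C57BL/6J. Trunk skin was digested, live tdTomato+ cells were sorted by flow cytometry, and 3′ RNA libraries were made on the 10X Chromium platform. There was 1 library per genotype, so no test was made and cells were not treated as replicates. The WT mast cells are therefore described gene by gene against the other 1448 WT cells.

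Mast cells are leukocytes that arise from blood progenitors and settle in the skin and other barrier tissues, where they mature under the KIT receptor and its ligand. They store proteases, histamine and heparin in granules and release them when the IgE receptor or other receptors are engaged. In rodents, mast cells of connective tissue such as skin are known for tryptases, carboxypeptidase A and certain chymases, and mast cells of mucosa for other chymases.

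*Hira* (ENSMUSG00000022702; chromosome 16, 18877037 to 18970309 of GRCm38), the targeted gene, had 1 UMI in the WT mast cells, or 3.37 CPM (0.0852 to 18.7), where CPM scales UMIs to the total of the same cells. In the 3 KO mast cells it had 0 UMIs, which allows up to 260.1 CPM. The other cells had 81 UMIs in WT, or 11.97 CPM (9.51 to 14.9), and 50 in KO, or 10.0 CPM (7.44 to 13.2). A difference in *Hira* between the mast cells of the libraries was not detectable at this depth, and the part of the gene removed by Cre is not given in the sources used here, so that 3′ UMIs need not report on it. Intervals of counts and shares here are exact 95% intervals (Poisson for CPM, Clopper-Pearson for shares, conditional binomial for ratios), and cover counting error only, while the limit given for a count of 0 is that of 3 UMIs. *Xist*, which is transcribed from the inactive X chromosome, had 443 UMIs in WT and 0 in KO mast cells, and the Y-linked gene *Eif2s3y* had 0 in WT and 2 in KO. Sex and genotype cannot be told apart in this pair of libraries.

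The reporter of the sort was not seen in these cells. tdTomato had 0 UMIs in the WT mast cells, which allows up to 10.1 CPM, against 8.13 CPM in the other WT cells, with 26 UMIs in melanoblasts and 6 in macrophages, so that a difference was not detectable at this depth. Melanoblasts were taken here as the 507 WT cells with at least 5 UMIs of *Dct*, *Pmel* and *Mlana* and at most 4 of *C1qa*, *C1qb* and *C1qc*. Macrophages were the 96 WT cells with at least 10 UMIs of the C1q genes and at most 4 of the melanoblast genes. *Tyr*, the tyrosinase gene whose promoter drives Cre, had 1 UMI in the mast cells, or 3.37 CPM (0.0852 to 18.7), against 246 CPM (227 to 265) in melanoblasts and 3 UMIs in macrophages, and the Cre sequence itself had 1 UMI. How the mast cells came into the tdTomato+ sort was not tested.

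Summed counts of the selecting genes left a gap around the threshold of 10 UMIs. These genes are high in the mast cells by the choice of cells, so that their values here are a description only. *Cma1* (ENSMUSG00000022225; chromosome 14, 55941451 to 55944675), a chymase gene, was at 37647 CPM (36952.5 to 38351) in WT mast cells and 59.3 CPM in the other WT cells, with 10 to 306 UMIs per mast cell and a median of 116.5. *Cpa3* (ENSMUSG00000001865; chromosome 3, 20215620 to 20242181), which encodes the mast cell carboxypeptidase A, was at 27759.8 CPM (27164 to 28365.5) against 39.5 CPM. *Tpsb2* (ENSMUSG00000033825; chromosome 17, 25366305 to 25369098), a tryptase gene, was at 8528 CPM (8199 to 8866) against 16.6 CPM, and 3 mast cells had no UMI of it. Together these genes made up 0.571% to 17.4% of the UMIs of a WT mast cell, with a median of 8.18%. The lowest summed count of a WT mast cell was 15 UMIs and the highest of another WT cell was 6. In KO, the lowest mast cell had 225 and the highest other cell 4. No cell had at least 10 UMIs of the selecting genes and more than 4 of the melanoblast genes.

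**Figure D1:**
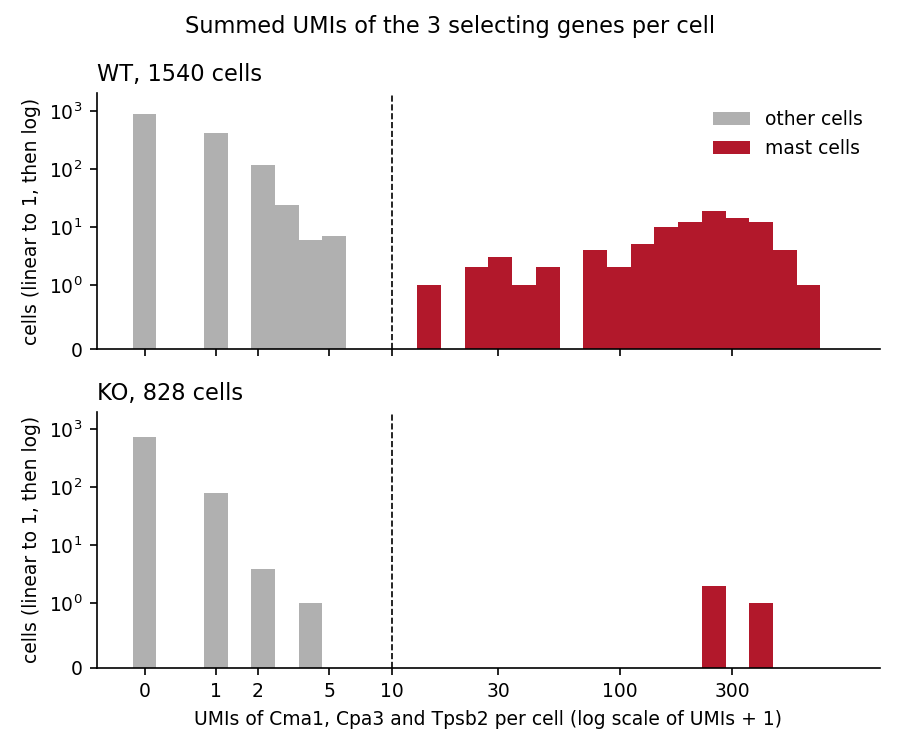
Summed UMIs of *Cma1*, *Cpa3* and *Tpsb2* in each WT (top) and KO (bottom) cell, on a log axis of UMIs plus 1, with numbers of cells as bars and the threshold of 10 UMIs dashed. The lowest WT mast cell had 15 UMIs and the highest other WT cell 6.

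Low counts of mast cell genes were spread over the other cells. Of the 1448 other WT cells, 567 (39.2%) had at least 1 UMI of a selecting gene, and of the 825 other KO cells 86 (10.4%). By type, the share was 41.8% in WT melanoblasts and 51.0% in WT macrophages, at median depths of 4525 and 5533.5 UMIs per cell. The UMIs outside the WT mast cells amounted to 3.58% of those inside them for *Cma1*, 3.24% for *Cpa3*, 4.42% for *Tpsb2*, 3.69% for *Hdc* and 2.21% for the tryptase gene *Tpsg1*. They amounted to 21.7% for *Srgn*, which other leukocytes also express. In KO, with 3 mast cells, the values were 11.3% for *Cma1*, 9.45% for *Cpa3*, 8.99% for *Tpsb2* and 15.3% for *Hdc*. They were 20% for *Tpsg1* and 320.5% for *Srgn*. The source of these UMIs was not tested.

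The mast cells were shallower than the rest of the WT library, with a median of 2762.5 UMIs and 1016.5 genes per cell, against 4026 UMIs and 1508 genes. Their depth ranged from 1249 to 8955 UMIs. When both libraries were clustered with the Leiden method without the selecting genes, the melanoblast genes of the rule and the other granule proteases, 22 clusters were found. A cluster of 95 cells held the 92 WT and 3 KO mast cells and no other cell. None of the mast cells was called a doublet by Scrublet, and doublets were kept. No barcode was shared between the libraries.

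Of the 9 mast cell markers, 3 were the selecting genes, and of the other 6, 5 were found in the WT mast cells. *Hdc* (ENSMUSG00000027360; chromosome 2, 126593667 to 126619299), which encodes the enzyme that makes histamine, was at 6017 CPM (5741 to 6303) against 9.76 CPM in the other WT cells, a log2 ratio of 9.27 (8.91 to 9.65). Every WT mast cell had a UMI of it, from 2 to 72 with a median of 15. *Srgn* (ENSMUSG00000020077), which encodes serglycin, the core protein of the granule proteoglycan, was at 3489.8 CPM (3281 to 3709) and had a log2 ratio of 6.71, and was at 104 CPM in macrophages. *Ms4a2*, the beta chain of the IgE receptor, had 36 UMIs in 29 mast cells and 2 in all other WT cells. The remaining marker, *Fcer1a*, encodes the alpha chain that binds IgE and had 0 UMIs in all WT cells, which allows up to 10.1 CPM in the mast cells. In the KO library *Fcer1a* had 2 UMIs in 1 cell that was not a mast cell.

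Across all genes, 12338 had at least 10 UMIs over the WT cells and were read. With 10 CPM added to each side, 547 genes (4.43%) were at least 1 log2 unit higher in WT mast cells than in the other WT cells and 1827 (14.8%) at least 1 unit lower, around a median log2 ratio of -0.32 for all genes, beside which the medians of gene lists below are to be read, as their counts are beside these percentages. Genes past neither limit are said to lie between. A gene with under 10 UMIs in the other WT cells can be read only through the mast cells, so that the filter favours higher genes in the mast cell lists, and 4 of these lists are also given without it, a setting chosen after seeing the data. With TMM normalization in place of total UMIs, 735 genes were higher and 1487 lower, so that 33.1% of the called genes were higher, in place of 23.0%. With 1 CPM added the counts were 1022 and 5274. Since the cells were chosen by genes of this same contrast, these counts are a description.

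Among genes with at least 100 UMIs in WT mast cells, the 25 largest ratios with 10 CPM added belonged to the selecting genes and to genes of several functions. *Serpinb1a* (ENSMUSG00000044734), an intracellular inhibitor of serine proteases, was at 3389 CPM (3183 to 3605) against 14.3 CPM, with a log2 ratio of 7.88 (7.58 to 8.20) without an added value, the scale used for single genes from here on. *Cyp11a1*, the enzyme that opens steroid synthesis by cutting the cholesterol side chain, was at 747 CPM (652 to 852), with a log2 ratio of 8.50 (7.72 to 9.39) and UMIs in 68 of 92 mast cells. *Smpx*, known as a small protein of muscle, was at 669.7 CPM (579.9 to 769) in the mast cells with 3 UMIs in all other WT cells, a log2 ratio of 10.56 (8.99 to 12.85). *Maob*, a monoamine oxidase, was at 384 CPM (316 to 461), and *Gpr65*, a proton-sensing receptor of leukocytes, at 339.9 CPM (277 to 413), with log2 ratios of 6.34 and 5.58. The amino acid transporter *Slc7a5*, the lysosomal lipid transporter *Spns1* and the disulphide-forming endoplasmic reticulum oxidase *Ero1l* had log2 ratios of 3.87, 4.78 and 4.70. The endoplasmic reticulum protein gene *Fam105a*, the sodium pump regulator *Fxyd5* and the immediate-early gene *Ier3* had 5.06, 4.03 and 3.47. The remaining genes of the 25 are given with their families.

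The 10 genes with the smallest ratios, among those of at least 200 CPM in the other WT cells, were genes of other cell types. They were the melanoblast genes *Dct* and *Ptgds*, the macrophage genes *Pf4* and *C1qc*, the haemoglobin genes *Hbb-bs* and *Hba-a1*, the collagen gene *Col3a1*, *Car3*, *Dlk1* and *Meg3*. *Dct*, limited by the selection, had 7 UMIs in the mast cells and 8091 in the other WT cells. *Pf4* had 5 UMIs in WT mast cells, or 16.8 CPM (5.46 to 39.3), against 9909 CPM in macrophages. *Dlk1* and *Meg3*, imprinted genes of a shared locus, had 5 UMIs each in the mast cells and log2 ratios of -5.22 (-6.84 to -3.99) and -5.11 (-6.74 to -3.89). The place of some of these genes changed with the cells taken in. With 10 CPM added, *Car3* had a log2 ratio of -4.82 but 0.42 when the member threshold was 5 UMIs, and *Hba-a1* -4.68 but 0.21 when cells needed 500 genes.

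Granule proteases were higher as a group. Of 12 listed genes, 11 were read, and 3 of them are the selecting genes, which are high by the choice of cells. The other 8 were all at least 1 log2 unit higher in WT mast cells, with a median log2 ratio of 3.12 with 10 CPM added. Of these, 6 had under 10 UMIs in the other WT cells, and without the filter on UMIs 8 of 9 were higher, with a median of 2.99. Without 1 cell, described with the spread among cells and left out after seeing the data, 7 of the 8 were higher and 1 between, with a median of 2.18. *Tpsg1*, a tryptase anchored in the membrane, was at 609 CPM (524 to 705) in WT mast cells and had 4 UMIs elsewhere, a log2 ratio of 10.01 (8.63 to 11.90). *Tpsab1*, a soluble tryptase, had 26 UMIs in 11 mast cells. *Mcpt4*, a chymase of connective tissue mast cells, was at 562 CPM (480.0 to 654), but in 25 of 92 cells. *Gzmb* and *Ctsg*, serine proteases of lymphocytes and neutrophils, had 9 and 11 UMIs in the mast cells. *Mcpt9*, with 1 UMI, was not read. *Mcpt1* and *Mcpt2*, chymases known from mucosal mast cells, came mostly from that cell.

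Many of these proteases lie in shared loci. From *Cma1* to *Gzmb*, chromosome 14 of GRCm38 (55941451 to 56262260) holds 15 protein-coding genes of the files, of which 7 had at least 10 UMIs in WT mast cells. The protease genes *Cma1*, *Cma2*, *Mcpt1*, *Mcpt2*, *Mcpt4*, *Mcpt8* and *Ctsg* were these, and *Mcpt9* and *Gzmb* had 1 and 9 UMIs. The granzyme genes *Gzmc*, *Gzmd*, *Gzme*, *Gzmf*, *Gzmg* and *Gzmn* between *Ctsg* and *Gzmb* had 0. On chromosome 17 (25298394 to 25374442), 4 of 6 protein-coding genes from *Prss34* to *Tpsg1* had at least 10 UMIs, namely *Prss34*, *Tpsab1*, *Tpsb2* and *Tpsg1*. Some of these genes resemble each other. Of the 50-base words in the last 500 bases of their transcripts, 51.2% of those of *Mcpt9* and 12.9% of those of *Mcpt4* were also found in *Cma2*, so that the low counts of *Cma2* and *Mcpt9* are uncertain. No such word of *Cma1*, *Cpa3*, *Tpsb2*, *Tpsab1* or *Tpsg1* was found in another protease of the list, *Mcpt8* or *Prss34*.

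**Figure D2:**
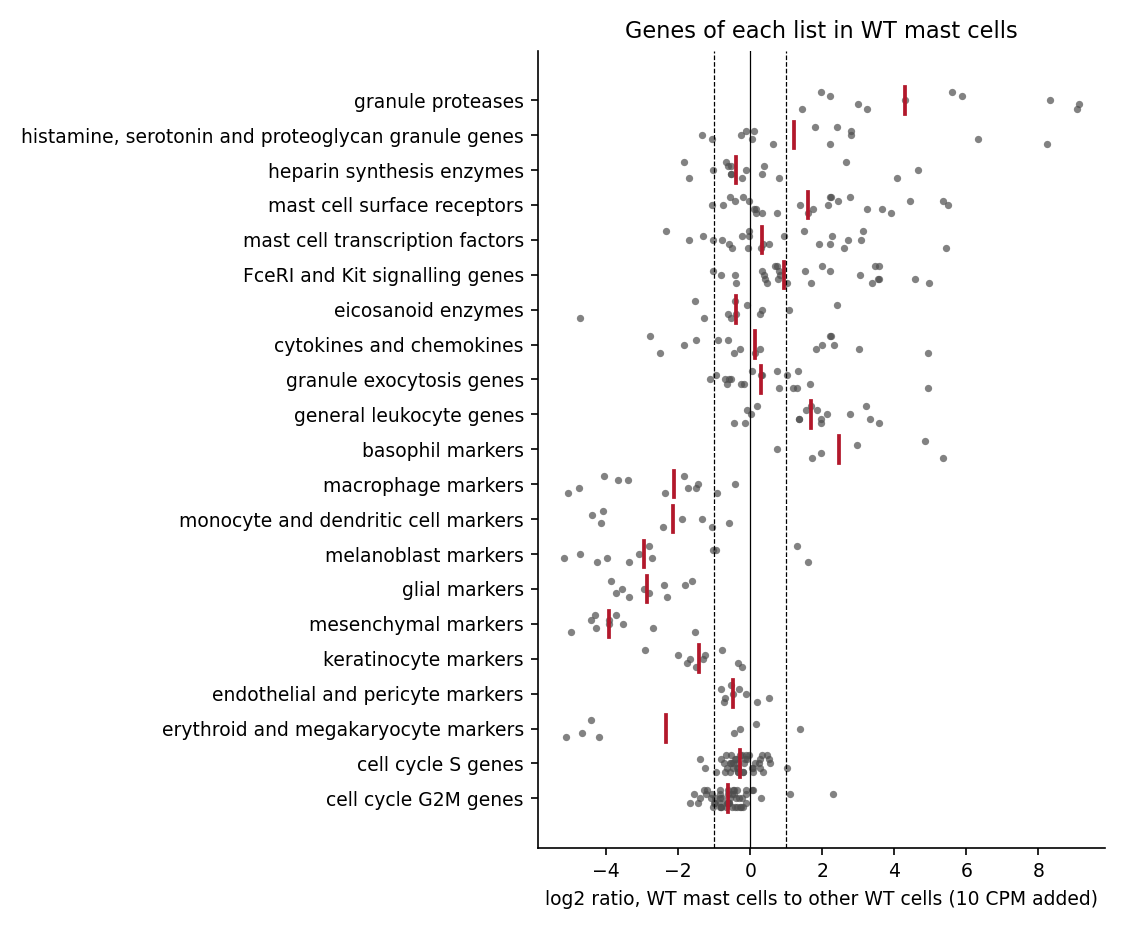
Log2 ratio of each gene read, WT mast cells to other WT cells with 10 CPM added, for the 21 gene lists, with list medians as red bars and dashed lines at 1 log2 unit. Granule proteases have a median of 4.29 with the selecting genes and 3.12 without them, and mesenchymal markers of -3.92.

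Genes for histamine, serotonin and the proteoglycan of granules were unevenly higher. Of 14 listed genes, all read, 7 were higher, 2 lower and 5 between, with a median log2 ratio of 1.21 with 10 CPM added. Besides *Hdc* and *Srgn*, the vesicular monoamine transporter *Slc18a2* had 18 UMIs in mast cells and 1 elsewhere. The serotonin synthesis genes *Tph1* and *Ddc* had 19 and 15 UMIs in mast cells, with log2 ratios of 6.76 (5.17 to 8.77) and 5.25 (3.96 to 6.62). Among lysosomal genes, *Ctsc*, the peptidase that activates granule proteases, had a log2 ratio of 1.89 (1.60 to 2.16) but -0.56 (-0.86 to -0.26) to macrophages alone, where it was higher. The lysosomal membrane gene *Lamp1* was lower at -1.12 (-1.58 to -0.69), and *Rab38*, a GTPase of melanosome transport, had 1 UMI. *Cd63*, a membrane protein of mast cell granules and of melanosomes, was at 2026 CPM (1867 to 2194) in mast cells and 1806 CPM in melanoblasts.

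Among the listed heparin synthesis genes, 3 genes of sulphation were higher. Of 16 listed enzymes, all read, 3 were higher, 3 lower and 10 between, with a median log2 ratio of -0.38 with 10 CPM added against -0.32 for all genes. Their summed level was 761 CPM (665 to 866) against 289 CPM in the other WT cells. *Hs3st1*, which adds a sulphate that antithrombin binds, was at 303 CPM (244 to 372) in mast cells and 2.37 CPM in the other WT cells, 128-fold higher. *Papss2*, which makes the sulphate donor, was at 188 CPM (142 to 245) and had a log2 ratio of 6.73 (5.81 to 7.77), while its paralog *Papss1* was at 10.1 CPM (2.08 to 29.5) with a log2 ratio of -2.62 (-4.91 to -1.07). *Ndst2*, a sulphotransferase needed for mast cell heparin, was at 87.5 CPM (57.2 to 128) with a log2 ratio of 4.04 (3.25 to 4.81). *Ndst1*, which acts in most tissues, had 1 UMI. *Xylt2*, *Glce* and *Hs6st1* had 0 UMIs in the mast cells. The related gene *Hs6st2*, which is not in the list, had 35 UMIs there. It was at 118 CPM against 24.1 CPM in the other WT cells, a log2 ratio of 1.91 with 10 CPM added.

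Of 32 receptor genes of mast cells, 25 were read, of which 14 were higher, 1 lower and 10 between, with a median log2 ratio of 1.60 with 10 CPM added. Of the higher genes, 9 had under 10 UMIs in the other WT cells, and without the filter on UMIs 14 of 32 were higher, 1 lower and 17 between, with a median of 0.42. *Kit* (ENSMUSG00000005672; chromosome 5, 75574916 to 75656722), the receptor for stem cell factor, was at 390.4 CPM (323 to 468) in WT mast cells, 264 CPM (245 to 285) in melanoblasts and 8.83 CPM (2.87 to 20.6) in macrophages. It was found in 66.3% of mast cells, 70.6% of melanoblasts and 5.21% of macrophages, at median depths of 2762.5, 4525 and 5533.5 UMIs. With each cell thinned to 2000 UMIs, which left out 26 mast cells, 7 melanoblasts and 1 macrophage, the shares were 56.1%, 40.2% and 1.05%. *Kit* was thus shared by mast cells and melanoblasts. Its ligand gene *Kitl* had 1 UMI in mast cells, against 27.9 CPM in the other WT cells.

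Some further receptors were found almost only in mast cells, and others were shared with macrophages. *Il1rl1* (ENSMUSG00000026069), the receptor of interleukin 33, was at 485 CPM (409 to 571) with a log2 ratio of 9.09 (7.94 to 10.56). It was found in 63.0% of mast cells, 0.394% of melanoblasts and no macrophage, and in 60.6% of thinned mast cells. *Cd200r3* and *Cd200r4*, activating members of the CD200 receptor family, had log2 ratios of 9.18 (7.92 to 10.82) and 8.93 (6.99 to 12.03). The adenosine receptor *Adora3* had 67 UMIs in 39 mast cells, a log2 ratio of 7.99 (6.79 to 9.49). The shared beta chain gene of the interleukin 3 and interleukin 5 receptors, *Csf2rb*, was at 155 CPM (113 to 206) with a log2 ratio of 4.36 (3.75 to 4.96), or 1.93 (1.18 to 2.72) to macrophages alone. *Mrgprb2*, the receptor for basic secretagogues of connective tissue mast cells, had 11 UMIs in 9 mast cells and 0 elsewhere in WT, at least 83.5-fold higher against 3 UMIs over all other WT cells. The Fc receptor gamma chain *Fcer1g*, which IgE and IgG receptors share, was in all 92 mast cells at 2921 CPM (2729.9 to 3122), and in macrophages at 3901 CPM (3740.2 to 4067). *Fcgr3*, an IgG receptor, was at 316 CPM (256 to 387) in mast cells and 891 CPM in macrophages. *Fcer1a*, *Il18r1*, *Itgae*, *Siglecf*, *Ccr1*, *Ccr3* and *Cxcr2* had 0 UMIs in the mast cells.

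Genes that act downstream of the IgE receptor and KIT were often higher. Of 28 listed genes, 26 were read, of which 13 were higher, 1 lower and 12 between, with a median log2 ratio of 0.93 with 10 CPM added. The adaptors *Lat2* and *Lat*, which collect signalling proteins at the receptor, were at 306 CPM (247 to 376) and 101 CPM (68.1 to 144), with log2 ratios of 6.56 (5.87 to 7.30) and 7.42 (5.91 to 9.38). The regulators of G protein signalling *Rgs13* and *Rgs18* were at 108 CPM (73.7 to 152) and 562 CPM (480.0 to 654). Of these, *Rgs13* had 1 UMI in all other WT cells, and *Rgs18* was at 51.2 CPM in macrophages. *Prkcb*, a protein kinase C, and *Lcp2*, an adaptor that binds LAT complexes, had log2 ratios of 5.00 (4.31 to 5.70) and 4.47 (3.75 to 5.18). *Rac2*, a GTPase of blood cells, was at 798 CPM (699 to 906) against 371 CPM in macrophages. To macrophages alone, the log2 ratio was 3.98 for *Lat2*, 1.30 for *Lcp2*, 1.44 for *Rgs1* and 2.03 for *Prkcb*. For other higher genes it was -0.16 (-1.58 to 1.13) for *Btk* and -0.56 (-2.38 to 1.00) for *Vav1*. For *Rgs2* and *Inpp5d* it was 0.37 (-0.28 to 1.01) and 0.79 (-0.19 to 1.75). The kinases that start the pathway had few UMIs, 9 for *Lyn*, 4 for *Syk* and 5 for *Fyn*, and *Fyn* was the gene that was lower.

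Transcription factor genes fell on both sides. Of 25 listed genes, 24 were read, of which 9 were higher, 4 lower and 11 between, with a median log2 ratio of 0.33 with 10 CPM added. *Gata2* (ENSMUSG00000015053), a regulator that mast cells need, was at 491 CPM (415 to 578) with a log2 ratio of 8.38 (7.46 to 9.47). It was found in 68.5% of mast cells, 0.592% of melanoblasts and no macrophage, and after thinning in 48.5% of mast cells. *Myb*, a factor of blood progenitors, the lymphoid factor *Ikzf1* and the homeobox gene *Meis2* had 28 UMIs each, with log2 ratios of 5.62, 3.70 and 2.40. *Hes1*, a target of Notch signalling, was at 1262 CPM (1137 to 1396) with a log2 ratio of 3.17, and *Id2*, an inhibitor of basic helix-loop-helix factors, at 1174 CPM (1054 to 1304) with 2.79. *Gata1* and *Tal1*, known from erythroid and mast cells, had 11 and 12 UMIs in mast cells against 1 and 3 in the other WT cells. *Mitf*, a regulator of both melanocytes and mast cells, was at 37.0 CPM (18.5 to 66.2) in mast cells, 185 CPM (169 to 202) in melanoblasts and 17.7 CPM (8.47 to 32.5) in macrophages. It was found in 9.78% of mast cells and 9.38% of macrophages, or 9.09% and 4.21% after thinning, so that a level of *Mitf* above that of macrophages was not detectable at this depth. *Zeb2*, a repressor, and *Lmo2*, a partner of blood cell factors, were lower, with log2 ratios of -1.36 (-1.78 to -0.96) and -4.09 (-9.40 to -1.60). The other lower genes were *Cebpa*, with 0 UMIs in mast cells, and *Mitf*. To the other WT cells, *Mitf* had a log2 ratio of -1.21 (-2.22 to -0.36).

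Among cytokine and chemokine genes, 17 of 22 were read, of which 7 were higher, 4 lower and 6 between, with a median log2 ratio of 0.14 with 10 CPM added. Of the higher genes, 5 had under 10 UMIs in the other WT cells, and without the filter 8 of 22 were higher, 4 lower and 10 between, with a median of 0.068. *Il4*, a type 2 cytokine, had 94 UMIs in 51 of 92 mast cells, or 316 CPM (256 to 387), and 4 UMIs in all other WT cells. The shares with a UMI were 55.4% of mast cells, 0.197% of melanoblasts and 0 macrophages, and 47.0% of thinned mast cells. *Il13*, a further type 2 cytokine, had 12 UMIs in 11 mast cells and 0 elsewhere in WT, at least 91.1-fold higher. Of the 11 mast cells with *Il13*, 7 also had *Il4*. *Osm* and *Tgfb1*, which encode oncostatin M and TGF-beta, were at 128 CPM (90.5 to 176) and 178 CPM (134 to 233), with log2 ratios of 4.20 (3.55 to 4.85) and 2.27 (1.81 to 2.70). To macrophages alone, the ratio of *Tgfb1* was -0.33 (-0.82 to 0.14), so that its level was shared by these leukocytes. *Ccl2* and *Ccl3*, chemokines at 622 CPM and 452 CPM in macrophages, had 0 UMIs in the mast cells. *Il5*, *Il1b*, *Csf1*, *Csf2*, *Areg*, *Vegfa* and *Cxcl10* also had 0.

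Genes of eicosanoid synthesis and of granule release were called in both directions. Of 12 eicosanoid enzymes, all read, 2 were higher, 3 lower and 7 between, with a median log2 ratio of -0.40 with 10 CPM added. *Hpgds*, the haematopoietic prostaglandin D2 synthase, was at 178 CPM (134 to 233) in mast cells, 6.18 CPM in melanoblasts and 249 CPM in macrophages. *Ptgds*, the other prostaglandin D2 synthase gene, was at 30.3 CPM (13.8 to 57.5) in mast cells and 2539.7 CPM in melanoblasts, so that the cell types differed in which synthase gene they had. The leukotriene C4 synthase gene *Ltc4s* had 3 UMIs and the cyclooxygenase gene *Ptgs1* 0. Of 19 genes of granule exocytosis, all read, 6 were higher, 1 lower and 12 between, with a median of 0.31. *Rab27b*, a GTPase that docks granules, was at 377 CPM (310.3 to 454) with a log2 ratio of 7.15 (6.42 to 7.95), while *Rab27a*, its melanosome paralog, had 1 UMI. The granule fusion genes *Vamp8* and *Snap23* had log2 ratios of 0.79 (0.46 to 1.10) and 0.94 (0.28 to 1.55).

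General leukocyte genes were higher, with exceptions. Of 18 listed genes, 17 were in the files and all 17 were read, of which 12 were higher and 5 between, with a median log2 ratio of 1.69 with 10 CPM added. *Arhgdib*, *Tyrobp* and the tetraspanin *Cd53* were at 1417 CPM (1285 to 1559), 1541 CPM (1403 to 1689) and 535 CPM (455 to 625), against 871 CPM, 2759.9 CPM and 399 CPM in macrophages. *Ptprc*, which encodes CD45, had 4 UMIs in the 92 mast cells, or 13.5 CPM (3.67 to 34.5), and 68.9 CPM in macrophages. *Itgb2*, the beta 2 integrin of leukocytes, had 0 in mast cells and 23.0 CPM in macrophages, where the limit from a count of 0 in mast cells is 10.1 CPM.

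Genes known from basophils were present beside those of mast cells. Of 8 listed genes, 6 were read, of which 5 were higher and 1 between, with a median log2 ratio of 2.47 with 10 CPM added. *Cd200r3*, *Il3ra* and *Fcer1a* are also in the mast cell receptor list, and *Gzmb* is also in the granule protease list. *Cd200r3* held 127 of the 268 UMIs of the basophil list in the mast cells. Of the higher genes, 4 had under 10 UMIs in the other WT cells, and without the filter 5 of 8 were higher and 3 between, with a median of 1.84. The protease genes *Prss34* and *Mcpt8* had 90 UMIs in 23 mast cells and 21 UMIs in 10, against 6 and 2 UMIs in all other WT cells. At least 1 of them was found in 27 of the 92 cells and both in 6. The 23 cells with *Prss34* had a median of 3865 UMIs and the 69 without it 2491. Between them, the log2 ratio was -0.13 (-0.74 to 0.46) for *Kit*, 0.19 (-0.33 to 0.69) for *Gata2* and 0.24 (0.10 to 0.38) for *Hdc*. It was -0.58 (-1.13 to -0.06) for *Mcpt4*, -0.48 (-0.95 to -0.04) for *Cyp11a1* and 0.26 (0.11 to 0.41) for the S and G2M genes. Thus these genes did not differ in 1 direction. The 10 cells with *Mcpt8* had a median of 4843.5 UMIs and the 82 without it 2674. Between these, the log2 ratio was -1.59 (-2.75 to -0.63) for *Mcpt4* and 0.76 (0.16 to 1.34) for *Gata2*. Both had the direction of the split by *Prss34*, as did the S and G2M genes at 0.29 (0.10 to 0.47). The summed selecting genes were at -0.13 (-0.18 to -0.07), and at -0.18 (-0.22 to -0.13) in the split by *Prss34*. *Cyp11a1* was at 0.52 (0.01 to 1.01), opposite in direction to the split by *Prss34*. *Tpsg1* was at 1.11 (0.61 to 1.59) and *Tpsb2* at -0.59 (-0.78 to -0.40). In the split by *Prss34* these 2 genes were at 0.18 (-0.28 to 0.63) and 0.02 (-0.10 to 0.14). *Itga2* and *Fcer1a*, the remaining genes of the list that were not read, had 0 UMIs in mast cells.

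Markers of most other cell types were low in the WT mast cells. Of 12 macrophage markers, 10 were lower and 2 between, with a median of -2.10 and 10 CPM added, and their summed level was 74.0 CPM (46.4 to 112) against 20867 CPM in macrophages. *Cx3cr1* was the most abundant with 11 UMIs, and *C1qc*, *Csf1r*, *Adgre1*, *Fcgr1* and *Mrc1* were at 0. Of 10 monocyte and dendritic cell markers, 8 were read, 7 were lower and 1 between, with a median of -2.16 and a sum of 67.3 CPM (41.1 to 104), and *Lyz2* was the most abundant with 5 UMIs. Of 12 melanoblast markers, *Dct*, *Pmel* and *Mlana* were limited by the selection. Of the other 9, 6 were lower and 1 between, with a median of -2.72, and *Kit* and *Mlph*, the 2 that were higher, are also in the mast cell lists. *Tyrp1*, *Slc45a2* and *Gpnmb* were at 0. All 10 glial and all 10 mesenchymal markers were lower, with medians of -2.87 and -3.92 and sums of 57.2 CPM (33.3 to 91.6) and 269 CPM (213 to 335), the latter led by *Sparc* with 26 UMIs. Of 10 keratinocyte markers, 7 were lower and 3 between, with a median of -1.41 and a sum of 30.3 CPM (13.8 to 57.5) led by *Krt10* with 6 UMIs.

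Of 10 endothelial and pericyte markers, 9 were read and all of these lay between, with a median of -0.48. Their sum was 74.0 CPM (46.4 to 112), led by *Egfl7* with 15 UMIs, against 87.5 CPM in the other WT cells. The log2 ratio of sums was -0.24 (-0.93 to 0.37), so that this list was not lower beyond counting error. *Cdh5*, *Kdr* and *Tek* were at 0. Of 12 erythroid and megakaryocyte markers, 8 were read, of which 4 haemoglobin genes were lower, *Itga2b* was higher with 6 UMIs in mast cells and 3 lay between. Of the lower genes, *Hba-a1* and *Hba-a2* were at 0.21 and 0.41 when cells needed 500 genes. In the main setting, with *Hba-a1* at -4.68 and *Hba-a2* at -4.41, the median of the 8 was -2.33. As these genes turned in sign when cells needed 500 genes, this median depends on the cells taken in. The summed level of the list in mast cells was 104 CPM (70.9 to 148). The part of RNA from other cells in these low counts was not tested.

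Cell cycle genes were in use in part of the mast cells. The S and G2M genes summed to 5492 CPM (5229 to 5765) in WT mast cells, 7958 CPM (7849 to 8067) in melanoblasts and 5161 CPM (4976 to 5352) in macrophages. Per mast cell their UMIs ranged from 0 to 83 with a median of 7. At least 10 such UMIs were found in 45.7% (35.2% to 56.4%) of mast cells, 70.0% of melanoblasts and 58.3% of macrophages. With cells thinned to 2000 UMIs, the shares were 42.4%, 49.2% and 26.3%. Mast cells were below macrophages as counted and above them after thinning, which also left out 26 of the 92 mast cells and 1 of the 96 macrophages. Of 43 S genes, 1 was higher, 2 lower and 40 between, with a median of -0.29 and 10 CPM added. Of 54 G2M genes, 52 were in the files and read, of which 2 were higher, 11 lower and 39 between, with a median of -0.61. *Hmgb2*, a chromatin protein, was at 1114 CPM (997 to 1241) in mast cells, and *Top2a*, the topoisomerase of dividing cells, at 131 CPM (93.3 to 179), with log2 ratios of -0.21 (-0.38 to -0.05) and -0.62 (-1.12 to -0.16).

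Within the WT library, mast cells with a larger share of cell cycle UMIs tended to have a smaller share of granule genes. Across the 92 cells, the share of S and G2M genes had a Spearman rho of -0.34 with that of *Hdc* plus *Srgn* and -0.27 with that of the granule proteases other than the selecting genes. With the selecting genes, on which the cells were chosen, it was -0.35, and with the total UMIs 0.47. All these shares come from the same UMIs of 1 library, and the cells are not replicates. With the 66 cells of at least 2000 UMIs thinned to that depth, the first 3 values were -0.36, -0.32 and -0.31.

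The cells were also divided at the median share of S and G2M genes, as a range and not as types. The 46 cells above it had a median of 3407 UMIs and the 46 below it 2354.5. The granule proteases other than the selecting genes were at 1067 CPM above and 2359.6 CPM below, a log2 ratio of -1.14 (-1.42 to -0.87), or -1.11 (-1.56 to -0.67) with thinned cells, both with the cell that holds most UMIs of *Mcpt2*. Without that cell, described below and left out after seeing the data, the first value was -0.73 (-1.02 to -0.44). *Hdc* had a log2 ratio of -0.44 (-0.58 to -0.30) and *Srgn* of -0.52 (-0.70 to -0.35). As counted, *Mcpt4* differed most among the single proteases that were compared, at -1.94 (-2.47 to -1.43), but it was at -0.70 (-1.54 to 0.09) with thinned cells. This rank did not hold after thinning, where *Prss34* was at 0.75 (-0.28 to 1.81), against -0.54 (-1.17 to 0.09) as counted. *Gata2* went the other way, at 0.71 (0.19 to 1.25), or 1.19 (0.34 to 2.07) when thinned, and *Kit* did not differ beyond counting error, at 0.14 (-0.41 to 0.71). *Tpsg1* was at 0.57 (0.11 to 1.03) and at -0.04 (-0.74 to 0.65) when thinned.

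A small number of genes varied among the mast cells far more than counting error allows. For the 927 genes with at least 40 UMIs in the WT mast cells, the squared deviations from equal shares per cell, divided by what counting error alone gives, had a median of 1.15, and 36 genes were at 3 or more. This measure and the genes named from it were chosen after their values were seen. *Mcpt4* was at 19.8, with 25 cells holding all its UMIs and up to 28 in 1 cell. The selecting genes *Cma1*, *Cpa3* and *Tpsb2* were at 35.1, 28.9 and 21.2, *Hdc* was at 4.50 and *Prss34* at 5.83. Genes outside the granule were among them too, such as the nuclear RNA *Malat1* at 17.7 and *Ifitm2*, an interferon-induced gene, at 11.1. The measure grows with the UMIs of a gene, so that its values do not rank genes of different abundance. The 25 cells with *Mcpt4* had a median of 2010 UMIs against 3261 in the other 67, so that *Mcpt4* was found in the shallower cells. In them *Srgn* had a log2 ratio of 0.33 (0.12 to 0.54) and *Hdc* of -0.14 (-0.32 to 0.04), and the S and G2M genes were lower at -0.70 (-0.92 to -0.49). Of the selecting genes, *Tpsb2* was at 0.61 (0.48 to 0.74) and *Cma1* at 0.46 (0.39 to 0.52).

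The highest values belonged to *Ifitm1* (54.7), an interferon-induced membrane protein, and *Mcpt2* (44.5), and both rested on 1 cell. That cell held 44 of the 55 UMIs of *Mcpt2*, all 21 of *Mcpt1*, 48 of 52 of *Ifitm1*, 24 of 61 of the protease inhibitor gene *Ctla2a* and 13 of 167 of *Mcpt4*. It had 10 UMIs of *Cma1*, 4 of *Cpa3* and 1 of *Tpsb2*, the lowest sum of any WT mast cell, among 2627 UMIs in all, and 9 UMIs of *Hdc* and 2 of *Kit*. Without this cell, a setting chosen after seeing the data, the log2 ratio of WT mast cells to other WT cells with 10 CPM added went from 4.29 to 2.24 for *Mcpt2*, from 2.99 to -0.021 for *Mcpt1* and from 1.90 to -1.07 for *Ifitm1*. All UMIs of *Mcpt1* in the mast cells thus came from 1 cell, while 4 other mast cells held 11 UMIs of *Mcpt2*, which remained past the limit of 1 log2 unit.

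**Figure D3:**
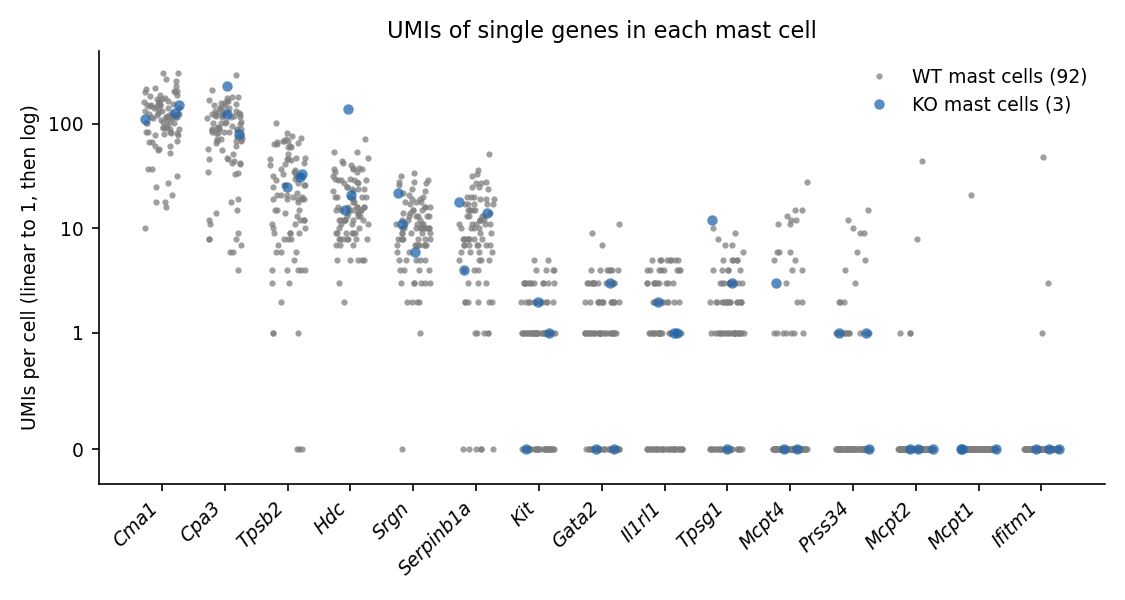
UMIs of 15 genes in each of the 92 WT (grey) and 3 KO (blue) mast cells, on an axis that is linear to 1 and then logarithmic, with points spread sideways at random. *Mcpt4* was found in 25 WT cells, and 1 WT cell held 44 of the 55 UMIs of *Mcpt2*.

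The 3 KO mast cells had 1488, 3825 and 6222 UMIs and had UMIs of most leading genes. Their UMIs of *Cma1* were 112, 128 and 151, of *Cpa3* 80, 125 and 229, and of *Tpsb2* 33, 25 and 31 in that order. *Hdc* had 15, 21 and 140 UMIs, and the cell with 140 exceeded the highest WT mast cell, which had 72. *Srgn* had 6, 11 and 22. Summed over the cells, *Hdc* was at 15258 CPM (13087 to 17686), a log2 ratio to WT mast cells of 1.34 (1.11 to 1.57), with most of the UMIs in this 1 cell. Of the 25 leading genes of the WT mast cells, 24 had a UMI in a KO mast cell, and *Cd200r3* had 0. As a description without a test, the log2 ratio to WT mast cells was -0.05 (-0.55 to 0.42) for *Srgn*, -0.12 (-0.64 to 0.36) for *Serpinb1a*, 1.09 (0.23 to 1.85) for *Tpsg1*, 1.64 (0.92 to 2.30) for *Ier3* and -2.90 (-8.21 to -0.40) for *Spns1*, the last on 1 KO UMI. For the selecting genes *Cpa3* and *Cma1* it was 0.44 (0.30 to 0.58) and -0.15 (-0.30 to -0.01), and for *Cd200r3* the upper end was -0.40. The intervals do not cover the spread among 3 cells, of which 1 held 19 of the 21 UMIs of *Ier3* and 12 of the 15 of *Tpsg1*. *Kit* had 1, 2 and 0 UMIs, *Gata2* 0, 3 and 0, and *Il1rl1* 1, 2 and 1. For these 3 genes a difference between KO and WT mast cells was not detectable at this depth.

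The promoters of the leading genes were read for the motif of GATA factors and the E-boxes of MITF. RefSeq windows on GRCm38.p6, from 250 bases before to 50 after the start of transcription, were searched on both strands for GATAA, which reads TTATC on the other strand, and for the E-boxes CACGTG or CATGTG. Of 32851 such promoters, 25.4% held GATAA, 7.15% held CACGTG and 14.2% held CATGTG. Counted by gene, 28.4% of 27025 genes had a promoter with GATAA, and of the 25 leading genes of the mast cells 16 matched the table. Of these 16, 7 held GATAA, 0 held CACGTG against 8.09% of all genes, and 2 held CATGTG against 15.9%. *Cma1* (chr14:55944626-55944925, minus strand) and *Cpa3* (chr3:20242132-20242431, minus strand) held GATAA 1 time each, and *Hdc* (chr2:126618629-126618928, minus strand) none of the motifs. The 3 windows, 5′ to 3′ along the gene with the motif in capitals, are shown because these genes had the highest ratios with 10 CPM added of the genes with an entry, and a match is a description only. *Tpsb2* had no entry.
Cma1: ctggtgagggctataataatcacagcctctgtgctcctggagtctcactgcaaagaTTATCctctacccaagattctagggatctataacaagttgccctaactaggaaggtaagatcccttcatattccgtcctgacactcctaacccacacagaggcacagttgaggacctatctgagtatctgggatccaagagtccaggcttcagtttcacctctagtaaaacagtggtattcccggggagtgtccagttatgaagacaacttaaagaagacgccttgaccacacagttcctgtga
Cpa3: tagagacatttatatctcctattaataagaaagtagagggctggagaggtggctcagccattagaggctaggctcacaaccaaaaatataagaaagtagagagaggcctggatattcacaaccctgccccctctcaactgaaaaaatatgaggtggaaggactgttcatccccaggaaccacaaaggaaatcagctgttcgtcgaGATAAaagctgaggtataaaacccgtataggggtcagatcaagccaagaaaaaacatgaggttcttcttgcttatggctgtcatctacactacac
Hdc: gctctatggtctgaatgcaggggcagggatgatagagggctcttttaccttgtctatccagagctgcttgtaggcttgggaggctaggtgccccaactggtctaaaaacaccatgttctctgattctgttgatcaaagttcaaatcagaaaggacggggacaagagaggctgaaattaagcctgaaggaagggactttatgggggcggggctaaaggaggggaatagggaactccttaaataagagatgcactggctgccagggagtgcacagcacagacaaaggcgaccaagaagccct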

How the data were processed

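The authors ran Cell Ranger 2.2.0 on mm10 extended by tdTomato and Cre, and deposited raw UMI counts for each library. The WT library held 1546 barcodes and 7073939 UMIs, the KO library 846 and 5049514, over 28000 genes. The filters on genes and mitochondrial UMIs removed 6 WT and 18 KO barcodes. Counts were summed over cells and scaled to CPM of those cells. A gene was called at 1 log2 unit with 10 CPM added. Clustering used 2000 variable genes, 30 components, 15 neighbours, resolution 1 and seed 0.

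Named genes were the mast cell markers, members of 21 gene lists with at least 20 UMIs and the most extreme ratios, defining markers at 0, the 25 highest and the 10 lowest ratios, and others named after their values were seen. Some genes of the lists are not reported here by name. Members and lists were chosen with earlier results of these data known. Alternatives changed the member threshold, cell filters, doublets, membership, depth, weighting, added CPM, gene filter and normalization. Calls and intervals were tried on simulated counts with known changes. The simulated counts had counting error only, so that the trial cannot show how intervals hold for genes that vary among cells. Coordinates are of GENCODE M21. Software was edgeR 4.0.16 under R 4.3.3 for TMM, and scanpy 1.11.5, igraph 0.11.9, anndata 0.12.19, pandas 2.3.3, scipy 1.17.1, numpy 2.4.6 and matplotlib 3.10.9 under Python 3.11.15 for the rest.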

Additional observations from a re-analysis of the deposited data

How the results depend on the processing

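No paired analysis was possible because there was 1 library per genotype. Of the counts of genes higher and lower in WT mast cells, those with 1 CPM added (1022 and 5274) and the higher count with at least 50 UMIs per gene (352, since fewer genes were read) were more than 1.5 times away from 547 and 1827. The shares of cells that are mast cells and the share with at least 10 S and G2M UMIs stayed within their counting intervals under every setting run. Thinning shared 376 of its 562 higher genes with the main list. Called ratios of *Car3* and of 2 haemoglobin genes turned, to 0.42 for *Car3* at a threshold of 5 UMIs, and to 0.21 for *Hba-a1* and 0.41 for *Hba-a2* with at least 500 genes per cell. With at least 500 genes the WT mast cells were the same 92, and 1534 of 1540 WT cells were kept. With a threshold of 5 UMIs there were 94 WT mast cells, which included the 92. Without an added value, *Hba-a1* had a log2 ratio of 0.66 (-0.88 to 1.94) to melanoblasts and 0.93 (-0.97 to 2.83) to macrophages. What the cells taken in or left out are was not tested. With a threshold of 20 UMIs, which leaves out the cell with most *Mcpt2*, *Mcpt1* turned to -0.41 and *Ifitm1* to -1.27, and without that cell alone, chosen after seeing the data, to -0.021 and -1.07. Of 5101 recomputed ratios of single genes, 4554 stayed within counting error, 540 moved, and 7 of genes called in the main setting changed sign. Sign changes of uncalled genes were not counted apart. The 4554 include ratios that could not move. The Leiden cluster and no limit on melanoblast UMIs chose the same cells, with 400 ratios each. The gene filters leave a ratio as it is, with 400 ratios for no filter and 296 for at least 50 UMIs. With 1 CPM added, 192 of 400 moved. Without the filter on UMIs, chosen after seeing the data, the median ratio of mast cell surface receptors moved from 1.60 to 0.42. Depth limits what can be read of genes under 10.1 CPM in WT mast cells and of nearly all genes in the 3 KO cells.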

Other observations

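Some genes outside the roles above, chosen after their values were seen, stood apart in the WT mast cells. *Nkg7*, a granule membrane gene of cytotoxic lymphocytes, was at 273 CPM (216 to 339) in mast cells and 4.58 CPM in the other WT cells, a log2 ratio of 5.89 (5.28 to 6.54), with UMIs in 31 cells. *Kif23*, a mitotic kinesin, was at 131 CPM (93.3 to 179) against 18.9 CPM, a log2 ratio of 2.79 (2.24 to 3.32), while *Top2a* and *Cdk1*, of the same G2M list, had -0.62 (-1.12 to -0.16) and -1.09 (-1.78 to -0.47). *Xist* was at 1491 CPM (1355 to 1636) in WT mast cells, against 2412 CPM (2352 to 2472) in melanoblasts and 2396 CPM (2270.1 to 2527) in macrophages, a log2 ratio to the other WT cells of -0.70 (-0.84 to -0.56).

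Chemokine UMIs were concentrated in few mast cells. *Ccl4* had 24 UMIs in 5 of the 92 WT cells, *Ccl1* 9 UMIs in 3 and *Cxcl2* 10 UMIs in 1. *Ccl17*, in contrast, had 11 UMIs in 10 cells and 1 in all other WT cells.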
